A study of Mus musculus with 4 samples.

Results

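The genes of the mouse major histocompatibility complex (MHC) and of the antigen presentation pathway around it were examined in marrow stromal cells of different fetal origin. Every row of the count table whose symbol begins with H2- was taken, which gave 32 rows, and 10 genes were added by name: Cd74, Ciita, B2m, Tap1, Tap2, Tapbp, Nlrc5, Psmb8, Psmb9 and Psmb10. These 42 rows of 17230 fell into 12 class II genes, 2 classical class I genes, 18 non-classical class I genes, 8 genes of the class I machinery, and 2 genes that carry an H2 symbol but encode no MHC chain. Of the 32 rows with an H2 symbol, 31 were placed on chromosome 17 by the GENCODE M21 annotation of build GRCm38, and H2-Q8 was not matched there.

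The libraries were bulk RNA sequencing of cells sorted from femurs at postnatal day 21, with GFP and tdTomato given as the marks of the sorted cells. GFP reports Cxcl12, the chemokine gene whose high expression defines CXCL12-abundant reticular (CAR) cells of the marrow, and tdTomato is a permanent lineage mark set by a tamoxifen-dependent Cre after tamoxifen at embryonic day 12.5. The Hes1-derived group (replicates 1 and 3) had the genotype Cxcl12(GFP/+); Hes1(CreER/+); R26R(tdTomato/+), and the Fgfr3-derived group (replicates 2 and 3) had Cxcl12(GFP/+); Fgfr3-iCreER; R26R(tdTomato/+), so that both groups carried a GFP allele of Cxcl12. The series title sets the fetal perichondrium against chondrocytes as the origins of these cells. The Cre line and the origin differ together between the groups and cannot be told apart. The extraction protocol names tdTomato alone as the sort mark and a loading on a 10X device, while the deposited table has 1 value per gene and library and was treated as bulk. The labels used here give neither the mouse strain, and with it the H2 haplotype, nor whether a library was 1 animal or a pool, so the p-values below measure only the spread between these samples.

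Classical class I molecules consist of a heavy chain bound to beta-2 microglobulin and show peptides of cytosolic proteins, cut by the proteasome and carried into the endoplasmic reticulum by the TAP transporter, on the surface of almost every cell. Class II molecules are pairs of an alpha and a beta chain that show peptides from the endosomes, and they are made mainly by B lymphocytes, dendritic cells and macrophages under the control of the coactivator encoded by Ciita. Non-classical class I molecules are less polymorphic relatives of the class I heavy chains, many of which are ligands of receptors on natural killer cells and unconventional T cells.

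The stretches before the transcription start were printed for 5 genes, since they show letters shared among class II genes and other letters shared among class I genes. They come from RefSeq (build GRCm38.p6), are written from 5′ to 3′ on the strand of the gene, and are 180 bases long, ending 1 base before the start. H2-Aa lies on the minus strand at chr17:34287824-34288003, H2-Eb1 on the plus strand at chr17:34305687-34305866, H2-Ob on the plus strand at chr17:34238725-34238904, H2-K1 on the minus strand at chr17:34000348-34000527, and H2-Q6 on the plus strand at chr17:35424670-35424849. Capitals mark 4 motifs: TGATTGG (the Y box, a reversed CCAAT box, read as CCAATCA where it lies on the other strand), CNNATGATG (a stretch of the class II X boxes on the X2 side, with letters chosen after reading these promoters), GGGATTCCC (a kappa-B site) and TTTCACTTC (part of an interferon-stimulated response element).
H2-Aa: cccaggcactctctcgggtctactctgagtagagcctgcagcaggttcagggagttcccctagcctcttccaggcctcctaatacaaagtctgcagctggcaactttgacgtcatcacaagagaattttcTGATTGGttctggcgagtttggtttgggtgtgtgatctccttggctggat
H2-Eb1: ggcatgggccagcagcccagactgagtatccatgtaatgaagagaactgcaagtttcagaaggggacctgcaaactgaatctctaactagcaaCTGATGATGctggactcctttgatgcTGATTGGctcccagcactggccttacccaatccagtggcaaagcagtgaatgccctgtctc
H2-Ob: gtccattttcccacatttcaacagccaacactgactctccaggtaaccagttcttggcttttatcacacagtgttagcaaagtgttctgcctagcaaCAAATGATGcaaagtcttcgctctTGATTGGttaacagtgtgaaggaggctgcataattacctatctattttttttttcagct
H2-K1: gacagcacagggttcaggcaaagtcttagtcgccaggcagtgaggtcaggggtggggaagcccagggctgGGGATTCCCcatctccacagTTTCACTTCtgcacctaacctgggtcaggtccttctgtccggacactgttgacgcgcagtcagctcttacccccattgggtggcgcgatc
H2-Q6: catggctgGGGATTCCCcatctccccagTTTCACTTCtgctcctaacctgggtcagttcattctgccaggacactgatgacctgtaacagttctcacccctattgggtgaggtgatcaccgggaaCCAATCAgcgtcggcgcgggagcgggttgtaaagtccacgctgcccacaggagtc

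All motifs were searched on both strands of windows from 250 bases before to 50 after the start, and no 2 of them overlapped in the stretches shown. The Y box was found in 7 of the 8 class II members with a RefSeq window, the exception being H2-DMa, against 7.82% of all 32851 windows. It was also in both classical and 5 of the 12 non-classical class I genes and in 2 of 6 machinery genes with a window (Psmb9 and Tap1). In H2-Aa it lay 50 to 44 bases before the start, in H2-Eb1 61 to 55 and in H2-Ob 59 to 53. The letters of CNNATGATG were chosen after reading the promoters shown, so its count is no test of enrichment. It stood in 4 of the 8 (H2-DMb1, H2-DMb2, H2-Eb1 and H2-Ob), in 1 of the 12 non-classical class I genes (H2-T23) and in 2.75% of all windows. In H2-Eb1 it lay 87 to 79 bases before the start and in H2-Ob 83 to 75, on the far side of the Y box. The kappa-B letters were in both classical class I genes, in H2-Q6 among 12 non-classical class I genes, and in none of the 8 class II genes, against 0.353% of all windows. TTTCACTTC was in H2-D1, H2-K1 and 4 of the 12 non-classical genes (H2-M3, H2-Q10, H2-Q4 and H2-Q6), and in 0.505% of all windows. These are matches of letters and describe the windows, not the binding of a factor.

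The libraries held 22745128, 23625327, 26025607 and 26804832 counted reads, and 14330 rows passed the low-count filter. In what follows, 4 values given in a row are those of Hes1-derived replicates 1 and 3 and Fgfr3-derived replicates 2 and 3, in CPM (counts scaled to library size, here with TMM factors) unless another unit is named. The eGFP transgene stood at 6669, 3204, 9264 and 6754 CPM and Cxcl12 at 7057, 4180, 9764 and 7028 CPM, so both genes behind the sort label were high in all 4 libraries. Blood cell genes were present beside them. The summed level of 16 pan-leukocyte genes, which include Coro1a, an actin regulator of leukocytes, and Lcp1, a leukocyte actin-bundling protein, was 6797, 7715, 1883 and 3992 CPM, and that of 18 B lymphocyte genes, which include Cd79a and Cd79b of the B-cell receptor, was 3479, 3260, 501 and 905 CPM. Both sums were higher in both Hes1-derived libraries, and no gene of either list was at 0 in any library. The sum of 11 neutrophil genes was larger, at 25897, 30815, 8620 and 21223 CPM. That of 10 erythroid genes was 8006, 4413, 1170 and 1778 CPM. These sums too were higher in both Hes1-derived libraries.

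In the comparison of the groups by edgeR's quasi-likelihood test with Benjamini-Hochberg adjustment over all 14330 genes, 11 of the 39 members tested were higher in Hes1-derived libraries and 1 was lower, at an adjusted p under 0.05. Over all genes, 11.8% were called, 5.24% higher and 6.56% lower, and 4307 of the 14330 had an unadjusted p under 0.05. The class II genes made up 9 of the 11 higher calls. Without Fgfr3-derived replicate 2, 3 members were higher (H2-Aa, H2-Ab1 and H2-Ob), and without Hes1-derived replicate 3, 7 were. The median log2 fold change, Hes1-derived minus Fgfr3-derived, was 1.96 for the 11 class II genes tested, -0.12 for the 16 non-classical class I genes, -0.16 for the 2 classical class I genes and 0.0081 for the 8 machinery genes, beside -0.02 for all genes. The class II median turned to -0.31 when libraries were scaled to B lymphocyte genes. That of the classical class I genes turned to 0.65 and 0.44 when they were scaled to eGFP or to reticular stroma genes. The median of all genes moved to -2.41, 0.83 and 0.59 with the B lymphocyte, eGFP and reticular stroma scalings. 3 members did not pass the filter. H2-Eb2, a class II beta chain, had 15, 2, 0 and 1 reads, H2-M10.2 had 1, 2, 2 and 0, and H2-M5 had 1, 0, 6 and 5, and a count of 0 allows up to 3 reads.

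**Figure D1:**
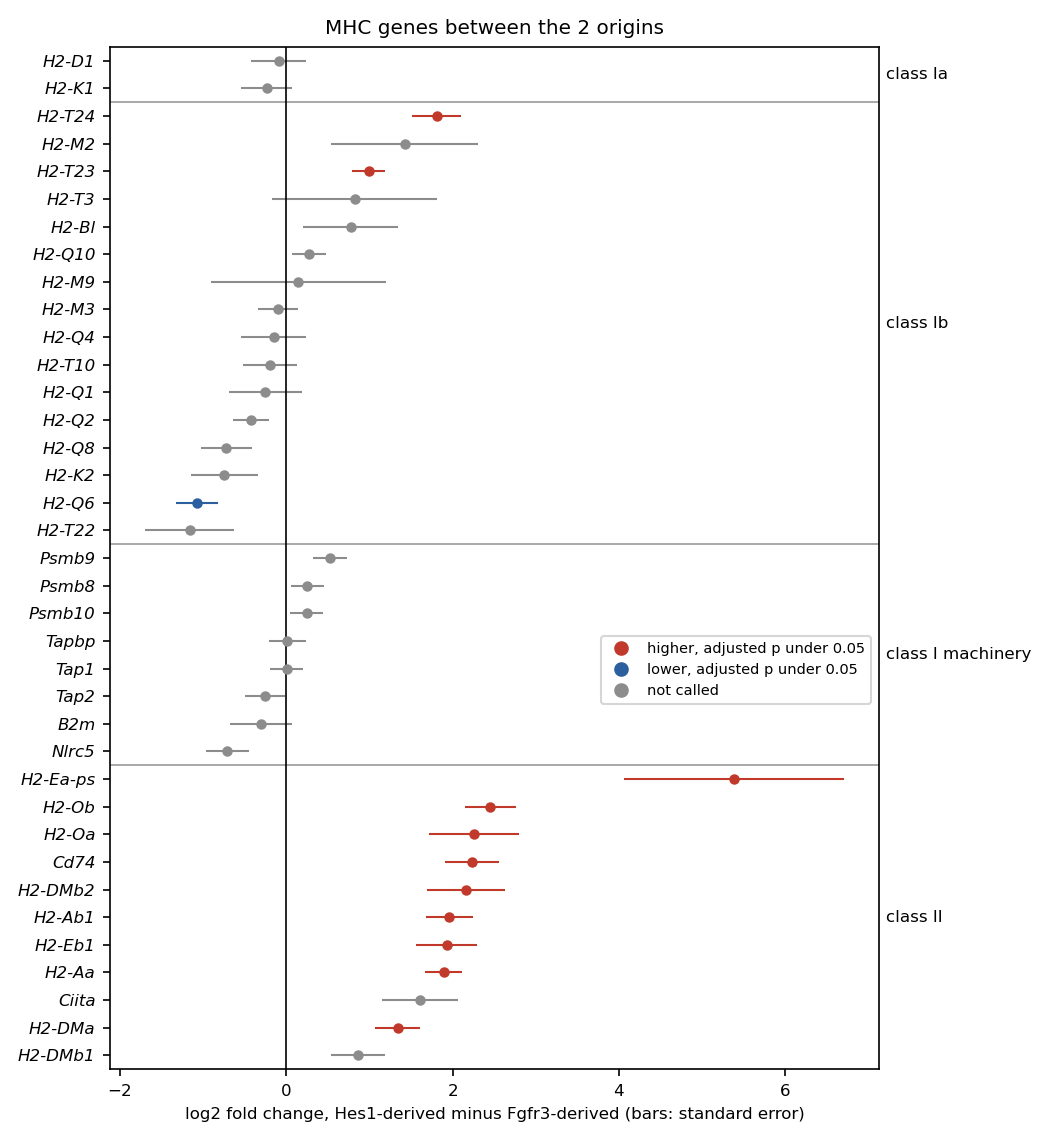
Log2 fold change, Hes1-derived minus Fgfr3-derived, of the class I and class II genes tested, on the horizontal axis, grouped by class (class Ia is classical, class Ib non-classical), with bars for the standard error. All 11 class II genes lie to the right of 0 with TMM scaling, 9 of them called, while the class I machinery lies around 0. Scaling to B lymphocyte genes moved the class II median to -0.31 and that of all genes to -2.41.

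Class II genes were higher in the Hes1-derived libraries with TMM scaling, among the presenting chains, the invariant chain and the loading factors, with 9 of the 11 tested called. When libraries were scaled to B lymphocyte genes, 9 of the 11 turned to lower values, 1 of them called (H2-DMb1). That scaling moved the median of all genes to -2.41, below the class II median of -0.31. For all 11, both Hes1-derived libraries lay above both Fgfr3-derived libraries, which held for 29.8% of all genes tested. Class II reads made up 0.160%, 0.149%, 0.0258% and 0.0412% of the libraries. The most reads fell on Cd74, the invariant chain, which blocks the peptide groove of new class II molecules and guides them to the endosomes. It stood at 1214, 981, 175 and 292 CPM. The group means were 1097 ± 165 CPM and 234 ± 83.2 CPM (SD, n = 2 each), a log2 fold change of 2.23 ± 0.33 (SE; edgeR adjusted p = 0.016).

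The alpha and beta chain of the I-A molecule moved together. H2-Ab1, the beta chain, was at 183, 175, 34.5 and 57.5 CPM (log2 fold change 1.96 ± 0.28, edgeR adjusted p = 0.016). H2-Aa, the alpha chain, was at 71.4, 74.7, 17.6 and 21.8 CPM (1.89 ± 0.23, adjusted p = 0.014). The Hes1-derived replicates were nearly equal for both chains, and every Fgfr3-derived value lay far below them. Per kilobase of exon, Cd74 stood at 723, 584, 104 and 174 CPM, above H2-Ab1 at 71.4, 68.2, 13.4 and 22.4 CPM and H2-Aa at 18.8, 19.7, 4.64 and 5.73 CPM. This order of Cd74 over the I-A chains was the same in each of the 4 libraries.

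The I-E molecule showed a further difference between libraries. H2-Eb1, its beta chain, stood at 37.2, 57.7, 8.79 and 16.1 CPM (log2 fold change 1.93 ± 0.37, edgeR adjusted p = 0.025), with the groups apart. H2-Ea-ps, its alpha chain, is annotated as a polymorphic pseudogene, and in several laboratory strains its promoter is deleted so that no I-E is made. It had 60, 663, 1 and 17 reads (log2 fold change 5.38 ± 1.32, edgeR adjusted p = 0.044). Most of these reads came from Hes1-derived replicate 3, whose CPM was 10.1 times that of replicate 1. Per 100 H2-Eb1 reads there were 7.09, 46.3, 0.448 and 4.04 H2-Ea-ps reads, so the alpha chain did not follow its partner in a fixed ratio. Without Hes1-derived replicate 3 the log2 fold change of H2-Ea-ps was 2.91 with an edgeR adjusted p of 0.21.

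**Figure D2:**
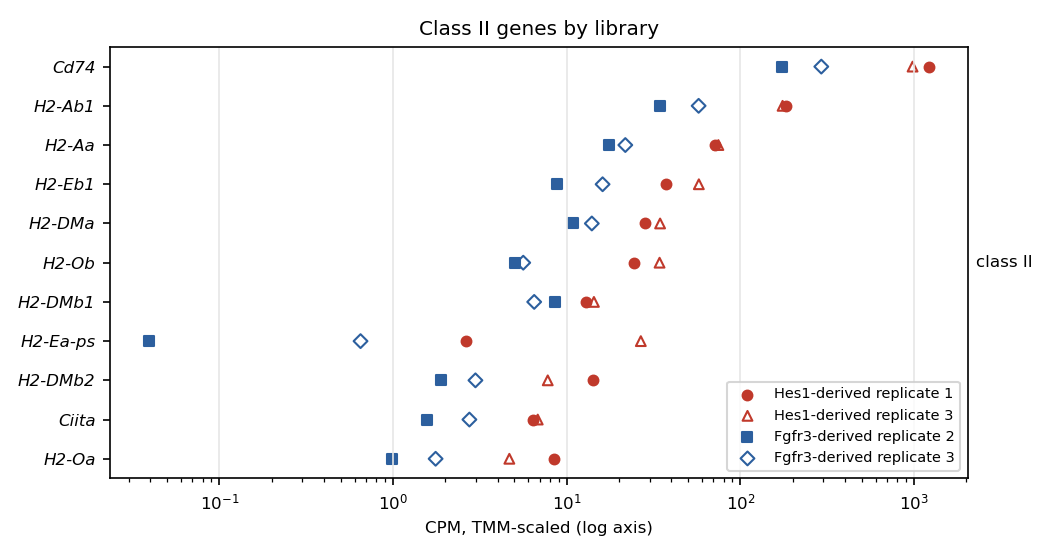
CPM, scaled by TMM factors, of the 11 class II genes tested, on a log axis, with 1 symbol for each library. The Hes1-derived libraries lie to the right of the Fgfr3-derived ones for all 11 genes. Cd74 is at 981 CPM and above in the former and at 292 CPM and below in the latter, and the H2-Ea-ps values spread widest. When libraries were scaled to B lymphocyte genes the sign of the fold change turned for 9 of the 11, while the median of all genes moved to -2.41.

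The non-classical class II genes encode H2-M, which exchanges the invariant chain fragment for peptide, and H2-O, which restrains H2-M and is known chiefly from B lymphocytes. H2-DMa, the alpha chain of H2-M, stood at 28.3, 34.5, 10.8 and 14.0 CPM (log2 fold change 1.34 ± 0.27, edgeR adjusted p = 0.028). Its beta chain has 2 gene copies. H2-DMb2 was called, at 14.2, 7.78, 1.89 and 2.98 CPM (2.17 ± 0.47, adjusted p = 0.031), while H2-DMb1 was not, at 12.9, 14.3, 8.56 and 6.499 CPM (0.86 ± 0.32, adjusted p = 0.13). The copies share 27.2% of the 50-base windows of H2-DMb1 and 30.9% of those of H2-DMb2, so their split between rows is uncertain. Counted as 1 gene they gave a log2 fold change of 1.30 ± 0.27 (edgeR adjusted p = 0.029).

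Of the H2-O genes, the beta chain H2-Ob stood at 24.3, 34.3, 5.05 and 5.62 CPM (log2 fold change 2.46 ± 0.31, edgeR adjusted p = 0.015). The alpha chain H2-Oa stood at 8.49, 4.67, 0.986 and 1.76 CPM (2.26 ± 0.54, adjusted p = 0.041), and it overlaps BC051537 on the opposite strand. For both chains the lower Hes1-derived library lay above the higher Fgfr3-derived one. Ciita, the class II transactivator, was low in every library, at 6.42, 6.81, 1.58 and 2.75 CPM, and did not pass the test (1.61 ± 0.46, edgeR adjusted p = 0.065), although its groups did not overlap. DESeq2 called it (adjusted p = 0.017).

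The class II reads were then set against reads of blood cell marker genes of the same library. Per 1000 reads of the B lymphocyte genes there were 461, 435, 528 and 466 class II reads, so that the Hes1-derived libraries were at 0.901 of the Fgfr3-derived mean and no longer above it. For Cd74 alone this ratio was 349, 301, 349 and 323, with the groups overlapping. Per 1000 reads of the 16 pan-leukocyte genes there were 236, 184, 141 and 106 class II reads, and per 1000 reads of 16 macrophage genes 2734, 1931, 838 and 937, and in both cases the Hes1-derived libraries were the higher ones. Of the B lymphocyte genes 17 of 18 were called higher, with a median log2 fold change of 2.26, and of the pan-leukocyte genes 10 of 16, with a median of 1.48. Without Hes1-derived replicate 3 these counts were 15 and 2, and without Fgfr3-derived replicate 2 the pan-leukocyte calls were lost while 14 B lymphocyte calls were made. Cd79a stood at 728, 623, 86.4 and 166 CPM and Cd79b at 512, 534, 77.8 and 126 CPM. In bulk samples, fewer cells of a type and less RNA per cell cannot be told apart, and the part of blood cells in the class II difference was not tested beyond these ratios.

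**Figure D3:**
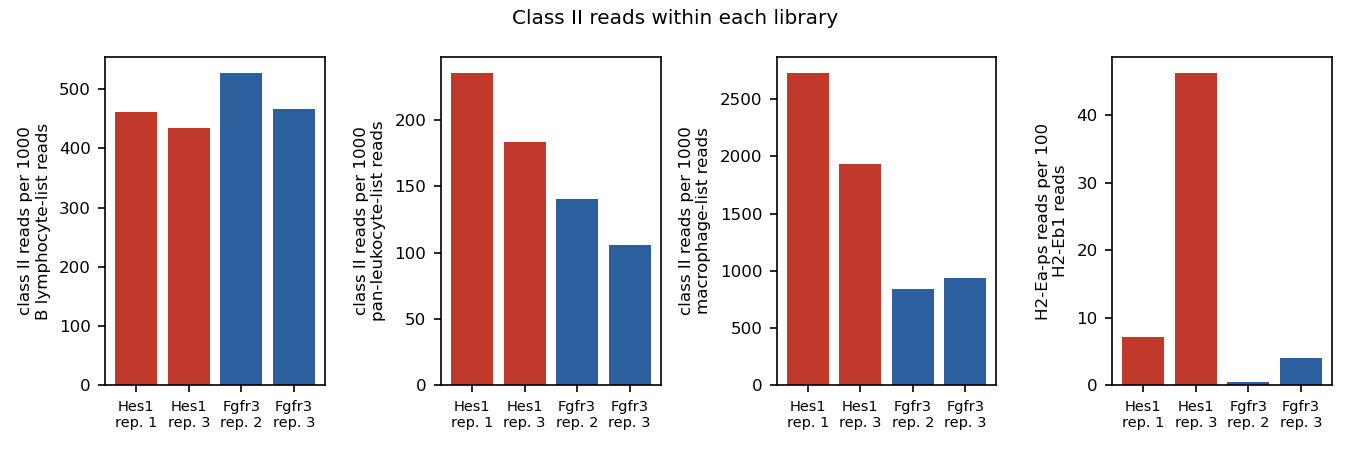
Reads of the class II genes per 1000 reads of B lymphocyte, pan-leukocyte or macrophage genes, and reads of H2-Ea-ps per 100 reads of H2-Eb1, with 1 bar for each library. Against B lymphocyte genes the Hes1-derived bars, at 461 and 435, stand below the Fgfr3-derived bars at 528 and 466, whereas against the other marker lists they stand above them.

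Markers of macrophages and dendritic cells were present as well. Among the macrophage genes 3 of 16 (Mpeg1, Csf1r and Emr1) were called higher, with a median log2 fold change of 0.66, 13 of 16 above 0 and a summed level of 587, 734, 316 and 450.5 CPM. Mertk, a receptor for the uptake of dying cells, had the lowest fold change of them (-1.11 ± 0.34, edgeR adjusted p = 0.074) and was called lower by DESeq2. Csf1r, the receptor of macrophage colony-stimulating factor, stood at 128, 179, 50.6 and 82.5 CPM (log2 fold change 1.21 ± 0.30, edgeR adjusted p = 0.044), and Mpeg1, a pore-forming protein of phagocytes, at 105, 154, 22.9 and 39.8 CPM (2.05 ± 0.33, adjusted p = 0.019). Among the dendritic cell genes 2 of the 10 tested were called higher, and the sum of the 12 rows was 131, 157, 44.8 and 59.0 CPM. Ccr7, the homing receptor of dendritic cells and lymphocytes, stood at 71.8, 89.1, 11.8 and 19.5 CPM (2.36 ± 0.30, adjusted p = 0.016). Zbtb46, a transcription factor of classical dendritic cells, was not called, at 12.0, 12.8, 16.4 and 14.1 CPM (-0.30 ± 0.28, adjusted p = 0.53), and Clec9a had 0, 6, 0 and 0 reads. Without Fgfr3-derived replicate 2 the macrophage calls were lost, and without Hes1-derived replicate 3, 1 was made. The part of these cells in the class II difference was not tested.

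Measured per 1000 Cd74 reads, the class II genes did not all keep 1 proportion. H2-DMa was at 23.3, 35.2, 62.0 and 47.7 reads per 1000 Cd74 reads, H2-DMb1 at 10.7, 14.6, 49.0 and 22.2, H2-Ab1 at 151, 178, 197 and 197, and Ciita at 5.29, 6.94, 9.03 and 9.41. In these 4 ratios both Hes1-derived libraries were below both Fgfr3-derived libraries. Those of H2-Aa, H2-Eb1, H2-DMb2, H2-Oa and H2-Ob overlapped between the groups. No test was made of these ratios, and the share of all genes that lie below on this measure was not computed. Cd74 itself had a log2 fold change of 2.23 with TMM scaling, beside a median of -0.02 for all genes. A gene that did not differ between the groups would thus be lower per Cd74 read in the Hes1-derived libraries. The split of reads between H2-DMb1 and H2-DMb2 is uncertain, as given above.

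Around the class II genes, 20 genes of class II transcription, peptide loading and costimulation were measured, with a median log2 fold change of 0.27. Of these 5 were higher and 1 lower, beside 5.24% and 6.56% of all genes. March1, a ubiquitin ligase that removes class II from the cell surface, stood at 14.5, 19.8, 2.96 and 4.93 CPM (log2 fold change 2.12 ± 0.39, edgeR adjusted p = 0.023). Cd40, the receptor through which helper T cells license B cells and dendritic cells, was at 22.7, 20.1, 3.55 and 7.03 CPM (2.02 ± 0.39, adjusted p = 0.026). Ifi30, the thiol reductase of the endosomes, was at 63.7, 36.1, 11.001 and 18.5 CPM (1.76 ± 0.37, adjusted p = 0.030). March8, a relative of March1 that is made by more cell types, was higher as well, at 190.0, 124, 60.4 and 80.2 CPM (1.16 ± 0.27, adjusted p = 0.040). In the other direction Lgmn, the asparaginyl endopeptidase of the endosomes, was at 192, 175, 407 and 373 CPM (-1.09 ± 0.21, adjusted p = 0.025). The groups did not overlap for any of these 5 genes. Both Hes1-derived libraries lay above both others for 29.8% of all genes tested and below them for 32.1%. The calls of these 5 genes were lost without Fgfr3-derived replicate 2, where calls over all genes were fewer as well. Without either of the Hes1-derived libraries 3 genes of the list were higher. The factors that bind class II promoters did not pass the test: the log2 fold changes of Rfx5, Rfxap and Rfxank were -0.14, 0.16 and 0.19.

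Neither classical class I heavy chain was called, and for both the libraries of the groups mixed with TMM scaling. H2-D1 stood at 3749, 2744, 3776 and 3136 CPM (log2 fold change -0.09 ± 0.33, edgeR adjusted p = 0.89). H2-K1 stood at 1211, 950.5, 1520.4 and 1026 CPM (-0.24 ± 0.31, adjusted p = 0.66). In each group replicate 3 was the lower library for both genes. By edgeR 0 of the 2 genes were called, 0 had an unadjusted p under 0.05, and DESeq2 and limma-voom called 0. Per kilobase of exon, H2-D1 stood at 1454, 1064, 1464 and 1216 CPM, above H2-K1 at 412, 324, 517 and 349 CPM in all 4 libraries.

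The sign of the class I difference, like that of the median of all genes, depended on what the libraries were scaled to. The reads of all 20 class I heavy chain rows, summed because many share sequence, gave a log2 fold change of -0.12 ± 0.35 (edgeR adjusted p = 0.86) with TMM scaling. Per 1000 eGFP reads there were 829, 1287, 633 and 681 heavy chain reads, and per 1000 reads of the reticular stroma genes 204, 238, 148 and 169. In both ratios the Hes1-derived libraries were the higher ones, and Hes1-derived replicate 3 was the highest of all. Scaled to eGFP, H2-D1 had a log2 fold change of 0.70 and H2-K1 of 0.60, and neither was called. The median of all genes was then 0.83, and 0.59 when scaled to reticular stroma genes, beside -0.02 with TMM scaling. With TMM scaling 5.24% of all genes were called higher and 6.56% lower, and 4307 of 14330 had an unadjusted edgeR p under 0.05. The reticular stroma genes summed to 27099, 17329, 39645 and 27242 CPM. Of these 26 genes 0 were called higher and 2 lower (5 at an unadjusted p under 0.05, and 5 lower by DESeq2). The lower calls numbered 6 without Hes1-derived replicate 1, 4 without Fgfr3-derived replicate 3 and 0 without either of the other two libraries.

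Of 16 non-classical class I genes tested, 2 were higher and 1 was lower in the Hes1-derived libraries. The shares called over all genes were 5.24% higher and 6.56% lower. Both Hes1-derived libraries lay above both others for 5 of the 16 and below them for 6, beside 29.8% and 32.1% of all genes. H2-T23, which encodes Qa-1, a ligand of inhibitory receptors on natural killer cells, stood at 132, 128, 69.2 and 61.6 CPM, or 130.2 ± 2.70 against 65.4 ± 5.33 CPM (SD, n = 2 each; log2 fold change 0.99 ± 0.20, edgeR adjusted p = 0.027). H2-T24 stood at 34.5, 24.7, 8.91 and 7.99 CPM (1.81 ± 0.29, adjusted p = 0.019). Both genes were higher in both Hes1-derived libraries, but H2-T23 missed the threshold when scaled to eGFP (1.85, edgeR adjusted p = 0.16) or to reticular stroma genes (1.62, edgeR adjusted p = 0.060). When scaled to B lymphocyte genes, which put the median of all genes at -2.41, both turned to lower, at -1.41 and -0.60. Without Fgfr3-derived replicate 2 neither was called, with edgeR adjusted p of 0.066 and 0.058, and H2-T23 was not called without either Hes1-derived library (0.068 and 0.085).

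H2-Q6, a gene of the Qa-2 group, was the single member called lower. It stood at 38.6, 27.7, 77.5 and 62.2 CPM (log2 fold change -1.08 ± 0.25, edgeR adjusted p = 0.039), with every Hes1-derived value below the Fgfr3-derived ones. Relative to H2-D1 of the same library it was at 10.3, 10.1, 20.5 and 19.8 reads per 1000 H2-D1 reads, which agree closely within each group. On the same measure H2-T23 stood at 35.2, 46.7, 18.3 and 19.7, so that these 2 non-classical genes differed in opposite directions relative to the same classical gene. H2-Q6 shared 35.0% of its 50-base windows with other genes, most with H2-Q7, and H2-T23 shared 16.0%. The count table has no row for H2-Q7, so it is uncertain whether all reads of the H2-Q6 row came from H2-Q6. Scaling to eGFP moved the median of all genes from -0.02 to 0.83, and scaling to reticular stroma genes moved it to 0.59. The H2-Q6 difference was -0.28 and -0.49 with these scalings, and was not called in either. It was not called without Hes1-derived replicate 3 (edgeR adjusted p = 0.18) or without Fgfr3-derived replicate 2 (0.14).

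The remaining non-classical class I genes did not pass the test. H2-Q4 had the most reads of them, at 146, 79.5, 167 and 84.2 CPM, with replicate 3 the lower library in each group and the groups overlapping. H2-Q10, known as a secreted class I protein of the liver, stood at 52.4, 56.9, 43.1 and 47.5 CPM (log2 fold change 0.27 ± 0.21, edgeR adjusted p = 0.43). H2-K2, annotated as a pseudogene, was at 49.4, 19.4, 57.8 and 57.5 CPM (-0.74 ± 0.40, adjusted p = 0.27), low in Hes1-derived replicate 3 alone. Without Hes1-derived replicate 1 its log2 fold change was -1.57 and it was called lower (edgeR adjusted p = 0.022), and without Hes1-derived replicate 3 it was -0.22. H2-M3, which presents formylated peptides of bacteria, was nearly level at 20.8, 19.7, 21.8 and 21.5 CPM. H2-Q2, H2-Q1, H2-Q8 and H2-T10 lay between 10.5 and 45.1 CPM, and H2-Bl, H2-T22, H2-M2, H2-M9 and H2-T3 at 4.18 CPM and below. Of the 20 heavy chain rows, 11 of the 19 with gene models shared more than 10% of their windows with another gene.

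**Figure D4:**
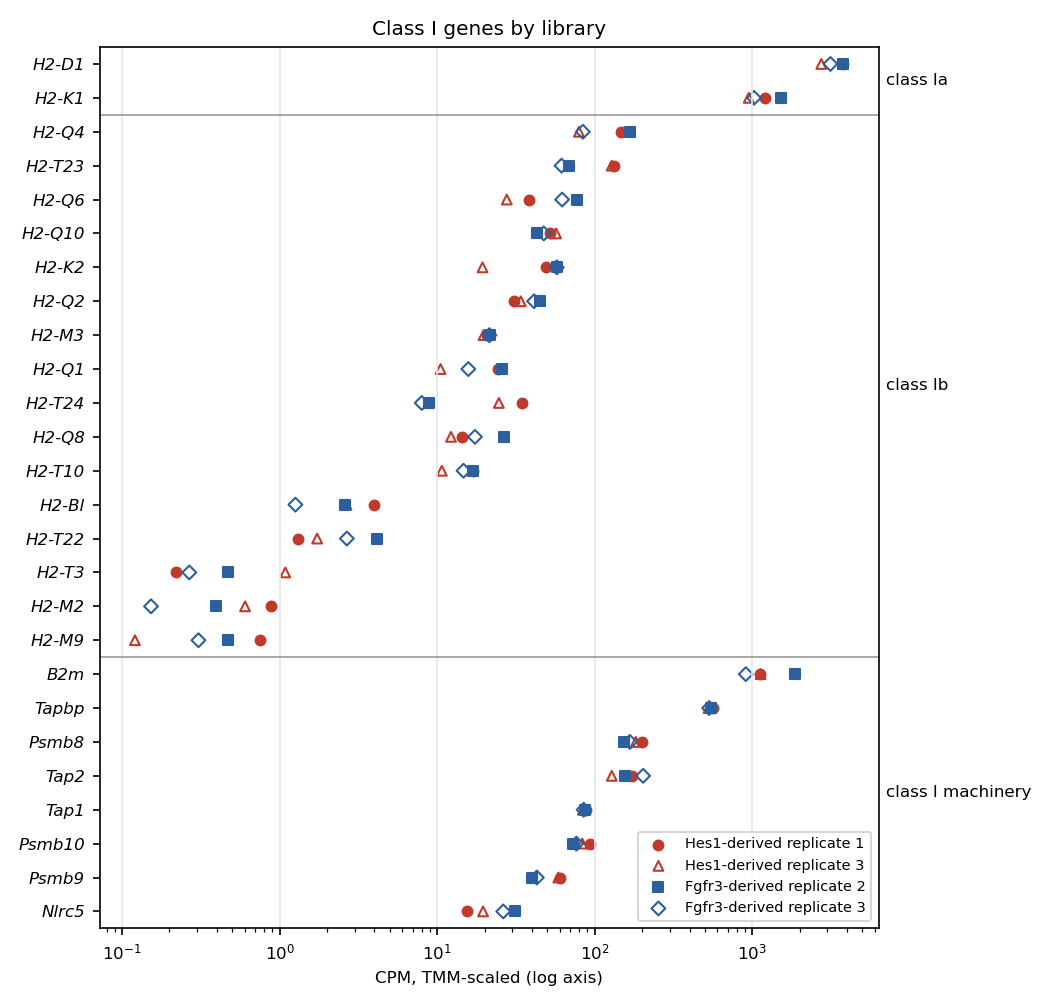
CPM, scaled by TMM factors, of the classical class I (class Ia), non-classical class I and class I machinery genes tested, on a log axis, with 1 symbol for each library. H2-D1, at 2744 to 3776 CPM, is the farthest to the right, and among the non-classical genes (class Ib) the called genes H2-T23, H2-T24 and H2-Q6 show the groups apart.

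In the class I machinery 0 of 8 genes were called by edgeR, and DESeq2 and limma-voom called 0. Of the 8, 2 had an unadjusted edgeR p under 0.05, beside 4307 of all 14330 genes. Tap1 and Tap2 encode the partner chains of the peptide transporter and Tapbp encodes tapasin, which holds the class I molecule at the transporter. Tap1 stood at 88.2, 84.2, 86.9 and 85.1 CPM and Tapbp at 563, 529, 549 and 533 CPM. Both were nearly level in all 4 libraries, with log2 fold changes of 0.0031 ± 0.19 and 0.013 ± 0.23. Tap2 stood at 172, 128, 156 and 203 CPM (-0.26 ± 0.24, edgeR adjusted p = 0.53), with the groups overlapping. B2m, the light chain of class I, stood at 1126, 1131, 1882 and 910.4 CPM (-0.31 ± 0.38, adjusted p = 0.64), so that the Fgfr3-derived replicates enclosed the Hes1-derived ones.

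Nlrc5, the coactivator of class I genes, and Psmb9 were the 2 with an unadjusted p under 0.05, beside 4307 of all 14330 genes. Nlrc5 stood at 15.5, 19.6, 31.2 and 26.3 CPM, below in both Hes1-derived libraries (log2 fold change -0.71 ± 0.26, edgeR adjusted p = 0.12). Psmb8, Psmb9 and Psmb10 encode the catalytic subunits that replace Psmb5, Psmb6 and Psmb7 in the immunoproteasome, the form found in immune cells and after interferon. Psmb8 stood at 200.04, 182, 153 and 167 CPM (0.25 ± 0.20, adjusted p = 0.44). Psmb9 stood at 60.04, 58.8, 39.7 and 43.0 CPM (0.52 ± 0.20, adjusted p = 0.14), and its exons overlap those of Tap1 on the opposite strand. Psmb10 stood at 93.9, 83.5, 72.9 and 76.6 CPM (0.25 ± 0.20, adjusted p = 0.46). For all 3 subunits both Hes1-derived libraries were the higher ones with TMM scaling, as for 29.8% of all genes tested. Their fold changes turned to lower when scaled to pan-leukocyte or B lymphocyte genes, which moved the median of all genes to -1.52 and -2.41.

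**Figure D5:**
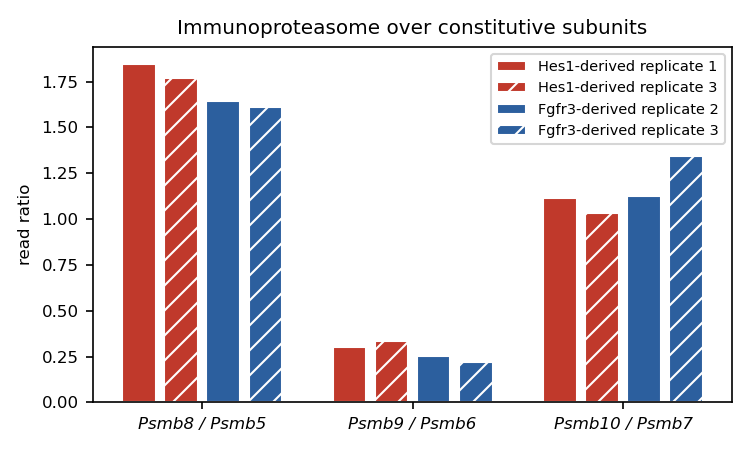
Reads of each immunoproteasome subunit per read of the constitutive subunit that it replaces, with 1 bar for each library. The ratio of Psmb8 to Psmb5 runs from 1.61 to 1.85 and that of Psmb9 to Psmb6 from 0.219 to 0.335, both higher in the Hes1-derived libraries. That of Psmb10 to Psmb7 runs from 1.03 to 1.35. It is nearly the same in Hes1-derived replicate 1 and Fgfr3-derived replicate 2 and highest in Fgfr3-derived replicate 3.

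Set against the constitutive subunits of the same library, Psmb8 had 1.85, 1.77, 1.65 and 1.61 reads per Psmb5 read. Psmb9 had 0.300, 0.335, 0.256 and 0.219 reads per Psmb6 read, and Psmb10 had 1.12, 1.03, 1.12 and 1.35 reads per Psmb7 read. The ratios of Psmb8 and Psmb9 were higher in the Hes1-derived libraries, each by less than 1.5 times. That of Psmb10 was nearly the same in Hes1-derived replicate 1 (1.116) and Fgfr3-derived replicate 2 (1.124), and highest in Fgfr3-derived replicate 3. Its denominator Psmb7 stood at 84.1, 80.7, 64.9 and 56.9 CPM (log2 fold change 0.44 ± 0.20, edgeR adjusted p = 0.20). No test was made of these ratios of subunits. Among all genes tested, 5.24% were called higher and 6.56% lower. Of 18 genes of the constitutive proteasome and its activators 1 was called, higher, and 0 lower (median log2 fold change 0.18). This was Psme3, an activator of the nuclear proteasome, at 488, 409.8, 232 and 245 CPM (0.91 ± 0.22, edgeR adjusted p = 0.042), a call that was lost when any 1 library was left out.

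The chaperones and trimming enzymes of class I assembly gave no call among 12 genes by edgeR with TMM scaling (median log2 fold change -0.24). Of the 12, 4 had an unadjusted edgeR p under 0.05, beside 4307 of all 14330 genes. DESeq2 called 1 higher and 3 lower. Pdia2, a protein disulfide isomerase, stood at 12.5, 13.7, 5.64 and 5.47 CPM (1.24 ± 0.32, edgeR adjusted p = 0.0501). It was the gene called higher by DESeq2, and also by limma-voom, with RLE factors or library totals, with no filter or a stricter one, and when scaled to reticular stroma genes, but not when any 1 library was left out. The most abundant were Hspa5, the main chaperone of the endoplasmic reticulum, at 1677, 2088, 3239 and 3244 CPM (-0.78 ± 0.30, adjusted p = 0.13), and P4hb, a protein disulfide isomerase, at 862, 798, 1477 and 1502 CPM (-0.84 ± 0.26, adjusted p = 0.075). Both had every Hes1-derived value below the Fgfr3-derived ones, as did 32.1% of all genes tested. Of the 12 genes, 4 lay below in this way, 1 lay above and 7 overlapped. Among 26 genes of interferon signalling and MHC regulation, 1 was higher and 1 lower, beside 5.24% and 6.56% of all genes. The median of the 26 was -0.10. Irf8, a transcription factor of B cells and myeloid cells, stood at 268, 252, 77.4 and 106 CPM (1.50 ± 0.23, edgeR adjusted p = 0.018). Ifngr2, a chain of the interferon gamma receptor, stood at 185, 163, 308 and 320 CPM (-0.85 ± 0.21, adjusted p = 0.042). Irf8 was not called without Fgfr3-derived replicate 2, and Ifngr2 was not called when any 1 library was left out. Other genes of the list were then called lower, Gbp4 without Fgfr3-derived replicate 2, Gbp2 without Fgfr3-derived replicate 3 and Socs3 without Hes1-derived replicate 1. When libraries were scaled to B lymphocyte genes, 14 of the 20 class II pathway genes, 18 of 18 proteasome genes, 11 of 12 chaperone genes and 25 of 26 interferon genes were called lower, as were 12323 of all 14330 genes.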

How the data were processed

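The deposited counts are whole numbers of reads for each gene symbol in each library. The authors made them on build mm10 with tools that include TopHat2 2.0.13, Bowtie2 2.2.1 and HTSeq, per the submitters' processing notes, which state no order of the steps. The strand setting of the counting is not given in the sources used here, so reads of H2-DMa, H2-Oa, H2-Q4, H2-T10, H2-T22, Ciita, Nlrc5, Tap1, Tap2, Tapbp, Psmb8 and Psmb9 may hold reads from an overlapping gene that runs the other way. The depth-normalized and log2 tables were not used.

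The counts of 14330 of 17230 genes passed the filter of edgeR 4.0.16 (R 4.3.3; minimum count 10) and were tested with TMM factors, robust dispersions and the quasi-likelihood F test. The biological coefficient of variation was 27.8%. The standard error of a log2 fold change is its size over the root of F. Alternatives were DESeq2 1.42.0, voom of limma 3.58.1, RLE factors, library totals, no filter and a stricter one, scaling to eGFP or to marker lists, summed heavy chains or H2-DMb copies, and leaving out each library. The edgeR step was tested on simulated counts of this comparison for 14330 genes, where it found 17 of the 100 genes set to a 2-fold and 80 of the 100 set to a 4-fold difference, with 10 false calls.

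The members, lists, alternatives and naming rule were chosen with earlier results of these data known. The rule gives each library's value for members that were called or among the 5 most abundant of their class. It names up to 4 called members of each pathway list and direction, else the 2 most abundant. Of each marker list it names the 2 most abundant, given here only for the pan-leukocyte, B lymphocyte, macrophage and dendritic cell lists. The other members and genes named here were chosen after their values were seen. The shares of all genes called were 5.24% higher and 6.56% lower. Of the other marker lists, 1 of 11 neutrophil, 2 of 11 T and NK cell, 8 of 9 erythroid and 1 of 12 endothelial genes were called higher. Of 16 osteoblast genes 11 were called lower. With 1 library left out these counts were 0 to 7, 0 to 5, 1 to 9, 1 to 2 and 6 to 9, with 7 neutrophil and 5 T and NK cell genes without Fgfr3-derived replicate 3, 1 erythroid gene without Fgfr3-derived replicate 2, and 6 osteoblast genes without Fgfr3-derived replicate 2 or Hes1-derived replicate 3. The T and NK cell count was 0 without either of these last libraries and the neutrophil count 0 in all but the first case. Exon lengths and shared 50-base windows come from GENCODE M21. Counting error alone is covered by the limit of 3 reads.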

Additional observations from a re-analysis of the deposited data

How the results depend on the processing

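No paired analysis was possible because no label links libraries across the groups. With DESeq2, 1429 genes were higher and 1557 lower, against 751 and 940 by edgeR. Scaling moved the median log2 fold change of all genes to 0.83 (eGFP), 0.59 (reticular stroma list), -1.52 (pan-leukocyte list) and -2.41 (B lymphocyte list), and the share of calls that were higher to 94.5%, 89.6%, 0.217% and 0.0730%, from 44.4%.

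Scaled to eGFP, 324 genes were higher and 19 lower, 0 members were lower, and 1 non-classical class I gene was higher and 0 lower. Scaled to reticular stroma, 121 genes and 0 members were lower, and 1 non-classical class I gene was higher and 0 lower. Scaled to pan-leukocyte genes, 10 genes were higher and 4601 lower, 1 member higher and 9 lower, 0 non-classical class I genes higher and 7 lower, 2 machinery genes lower and 1 class II gene higher. Scaled to B lymphocyte genes, 9 genes were higher and 12323 lower, 1 member higher and 25 lower, 2 classical class I, 12 non-classical class I and 8 machinery genes lower, 0 non-classical class I genes higher, and 1 class II gene higher and 1 lower.

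Leaving out each library gave 80 to 1153 genes higher and 158 to 963 lower, 3 to 11 members higher and 0 to 2 lower, and 0 to 2 non-classical class I genes higher and 0 to 2 lower. Class II calls were 3 to 9 higher, with 3 (H2-Aa, H2-Ab1 and H2-Ob) without Fgfr3-derived replicate 2, when Cd74 had a log2 fold change of 1.93 and an edgeR adjusted p of 0.053, and 6 without Hes1-derived replicate 3. H2-Ea-ps was not called by limma-voom, without a filter, or without either Hes1-derived replicate 3 or Fgfr3-derived replicate 2.

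Of 421 values of 27 named genes under the alternatives, 328 kept direction and call, 33 lost and 15 gained a call, and 45 changed sign. Changed log2 fold changes with the B lymphocyte scaling were -0.45 (H2-Aa), -0.31 (H2-Ab1), -0.98 (H2-DMa), -1.57 (H2-DMb1), -0.13 (H2-DMb2), -0.32 (H2-Eb1), -0.013 (H2-Oa), -2.09 (H2-Q10), -1.41 (H2-T23), -0.60 (H2-T24), -0.048 (Cd74), -0.65 (Ciita), -2.38 (Tap1), -2.38 (Tapbp), -2.11 (Psmb8), -1.84 (Psmb9) and -2.13 (Psmb10). With the pan-leukocyte scaling they were -0.10 (H2-DMa), -0.71 (H2-DMb1), -1.20 (H2-Q10), -0.53 (H2-T23), -1.50 (Tap1), -1.49 (Tapbp), -1.22 (Psmb8), -0.95 (Psmb9) and -1.23 (Psmb10). With eGFP they were 0.70 (H2-D1), 0.60 (H2-K1), 0.62 (H2-Q4), 0.63 (B2m), 0.49 (Tap2) and 0.21 (Nlrc5), and with reticular stroma 0.50, 0.39, 0.45 and 0.40 for the first 4 and 0.27 for Tap2. Without 1 library, ranges that crossed 0 were -0.33 to 0.12 (H2-D1), -0.44 to 0.093 (H2-K1), -0.66 to 0.44 (H2-Q4), -0.69 to 0.33 (B2m), -0.030 to 0.039 (Tap1) and -0.034 to 0.058 (Tapbp). The cause of these changes was not tested. The 421 values include 19 with heavy chains summed and 25 with the H2-DMb copies summed. Those fits merged only other rows, so that these values all kept direction and call and are no check of the genes counted. Lists scaled to their own genes were set against their own mean.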

Other observations

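MHC-like proteins encoded outside the H2 region were measured by 10 rows, 7 of which were tested. By edgeR 0 were called, and the median log2 fold change was -0.50. An unadjusted edgeR p under 0.05 was seen for 2, beside 4307 of all 14330 genes. DESeq2 called 2 lower. Fcgrt, the neonatal Fc receptor that protects antibodies and albumin from breakdown, was counted at 353, 202, 410.1 and 376 CPM, in the order of libraries used above (-0.50 ± 0.30, edgeR adjusted p = 0.31). Cd1d1, which presents lipids to natural killer T cells, stood at 132, 100.3, 191 and 147 CPM (-0.54 ± 0.24, adjusted p = 0.18). Hfe, a regulator of iron uptake, was at 41.6, 31.7, 72.4 and 57.2 CPM (-0.82 ± 0.24, adjusted p = 0.070). For each of these 3 genes both Hes1-derived libraries lay below both Fgfr3-derived libraries, beside 32.1% of all genes tested. Of the 7 tested, 4 lay below in this way, 1 lay above and 2 overlapped, with log2 fold changes from -0.99 to 1.60.

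Among the 18 heavy chain genes tested, 14 were lower in Hes1-derived replicate 3 than in replicate 1, and 17 were lower in Fgfr3-derived replicate 3 than in replicate 2, beside 53.9% and 50.2% of all genes tested. Over the 39 members tested, the larger replicate value over the smaller had a median of 1.26 in Hes1-derived and 1.30 in Fgfr3-derived libraries.

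The 2 rows with an H2 symbol that encode no MHC chain lie on chromosome 17. H2-Ke2, a subunit of the prefoldin chaperone, stood at 43.9, 37.8, 24.6 and 28.9 CPM (0.61 ± 0.23, edgeR adjusted p = 0.13). H2-Ke6, a steroid dehydrogenase, stood at 46.9, 38.5, 25.6 and 35.1 CPM (0.49 ± 0.26, adjusted p = 0.25), and shared 96.3% of its windows with Gm20427. Both were above in both Hes1-derived libraries, as were 29.8% of all genes tested. By edgeR 0 of the 2 were called, with 1 at an unadjusted p under 0.05, beside 4307 of all 14330 genes. DESeq2 and limma-voom called 0.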
